A study of Mus musculus with 25 samples.

Results

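Genes that mark the cells around the hepatocytes, or the matrix these cells lay down, were followed through liver regeneration. They were the 7 genes Eln, Col14a1, Clec1b, Clec14a, Anxa4, Spic and Prtn3. They were read by name from the study's list of transcripts that changed over the time course, of which 1719 mRNA probes for 1170 named genes were at hand, and each of the 7 genes had 1 probe there. The array table held values for 35979 probes in all. The study had selected that list on these same arrays, so a change of a member over the time course was built into its selection, and so was much of its direction. All 7 passed the F test over the times with an R-squared of 0.622 (Anxa4) to 0.944 (Eln), as did 32.2% of all probes (R-squared of 0.6 or more and adjusted p under 0.05), and nothing is read from this.

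RNA was taken from the livers of male Balb/c mice, 8 weeks old, and hybridised to the single-colour NCode Mouse Non-coding RNA Microarray, which carries probes for mRNAs and long noncoding RNAs. Most of the mice had undergone 2/3 partial hepatectomy (PHx), the removal of most of the liver mass, after which the remaining lobes grow back. Their livers were collected at 4, 12, 36 or 72 h, with 5 mice at each time, and the controls were 5 mice with sham surgery, whose sample source names give 4 h while another label leaves the hours out. No genetic modification or drug is named for any group. If all sham livers were from 4 h, the later PHx groups differed from them both in surgery and in hours since surgery, and these cannot be told apart. Time of day at collection was not examined here, and it may follow the hours since surgery as well.

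The liver's nonparenchymal cells include the endothelium that lines the sinusoids, resident macrophages called Kupffer cells, hepatic stellate cells and fibroblasts, and the epithelium of the bile ducts. Stellate cells and fibroblasts deposit collagens and elastic fibres, endothelial cells supply growth signals to hepatocytes, and Kupffer cells release cytokines soon after the resection. Neutrophils and their precursors are made in the bone marrow and reach the liver with the blood. In RNA from whole liver, fewer cells of a type and less RNA per cell cannot be told apart.

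Promoter sequence was available from RefSeq (GRCm38.p6) for 5 of the 7 genes, as windows of 300 bases reaching from 250 bases before to 50 bases after an annotated start, and none was at hand for Eln and Col14a1. The windows were searched on both strands for GAGGAA, the core of the box bound by PU.1, since PU.1 is a regulator of myeloid genes and the Spic protein belongs to the same ETS family. The windows of Prtn3 and Clec14a each held 1 match, and those of Clec1b, Spic and Anxa4, which had 2 windows, held 0. Both windows with a match are shown, because among the 7 genes Prtn3 had the largest rise over sham and Clec14a the largest fall at 4 h. The window of Prtn3 lies at chr10:79879417-79879716 on the plus strand and that of Clec14a at chr12:58269209-58269508 on the minus strand, and capitals mark the match.
Prtn3: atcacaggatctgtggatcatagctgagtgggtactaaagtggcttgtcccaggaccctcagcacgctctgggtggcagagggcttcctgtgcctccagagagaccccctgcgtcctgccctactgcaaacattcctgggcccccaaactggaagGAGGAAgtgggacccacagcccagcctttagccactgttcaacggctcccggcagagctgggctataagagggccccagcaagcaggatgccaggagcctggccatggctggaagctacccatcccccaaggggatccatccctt
Clec14a: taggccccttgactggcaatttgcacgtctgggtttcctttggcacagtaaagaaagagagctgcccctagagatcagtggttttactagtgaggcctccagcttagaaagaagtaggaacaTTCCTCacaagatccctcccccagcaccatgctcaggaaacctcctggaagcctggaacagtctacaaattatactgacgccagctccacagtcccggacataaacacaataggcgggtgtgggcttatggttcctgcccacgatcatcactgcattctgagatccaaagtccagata
The match began 95 bases before the start of Prtn3. In Clec14a it began 128 bases before the start, and it stands there as its reverse complement. Of all 32544 mouse promoter windows of this length, 28.1% held GAGGAA, so a match in 2 of 5 genes is a description and not a site. The AP-1 site TGANTCA and the E-box CACGTG, held by 7.79% and 7.17% of all windows, had 0 matches in these 5 genes. TATAAA, held by 13.6%, was found in Clec1b alone of the 5 genes, with 2 matches.

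The 25 arrays were close to each other in scale. Their median intensities lay between 97.7 and 102.7, and arrays of one group correlated at 0.981 to 0.996 over all probes. No mean of a member in any group lay among the dimmest 30% of probes, which ended at an intensity of 68.3. Intensities below are the deposited linear values, given in the order of replicates 1 to 5. A difference is the mean log2 intensity of one group minus that of another, tested with limma over all 35979 probes, and it was called at a Benjamini-Hochberg adjusted p under 0.05. The SE of a member's difference was the same for every pair of groups, and all differences from sham shared the same 5 sham arrays. Nothing in the labels beyond the numbering describes how the livers of a group were related, so the p-values measure the spread between these samples.

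The calls of the 7 genes against sham differed from time to time. At 4 h, 3 of the 7 were below sham (Clec1b, Clec14a and Spic) and 0 above, where 6.35% of all probes were lower and 6.12% higher. At 12 h, 5 were below sham and Eln was above it, beside 15.1% and 16.3% of all probes. By 36 h, 4 were lower and 2, Eln and Prtn3, were higher (12.5% and 13.6% of all probes). At 72 h, 4 were lower, now including Eln, and Prtn3 was higher (13.1% and 15.1% of all probes). The median difference of the 7 from sham was -0.28, -0.70, -0.35 and -0.26 at the 4 times, while the median over all probes stayed within 0.01 of 0. In the part of the study's list at hand, 736 of 1719 mRNA probes were lower and 23 higher at 4 h. The lower and higher probes there were 921 and 183 at 12 h, 875 and 658 at 36 h, and 899 and 573 at 72 h. That part held 401, 471, 610 and 285 mRNA probes of the study's clusters 1 to 4. Its balance of lower and higher probes need not be that of the whole list. Nothing can therefore be read from these counts about the 7 genes as a class. Between successive times, 1 member rose and 2 fell from 4 h to 12 h (14% and 13.2% of all probes), 4 rose and 1 fell from 12 h to 36 h (14.4% and 15%), and 1 rose and 1 fell from 36 h to 72 h (5.37% and 4.54%).

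**Figure D1:**
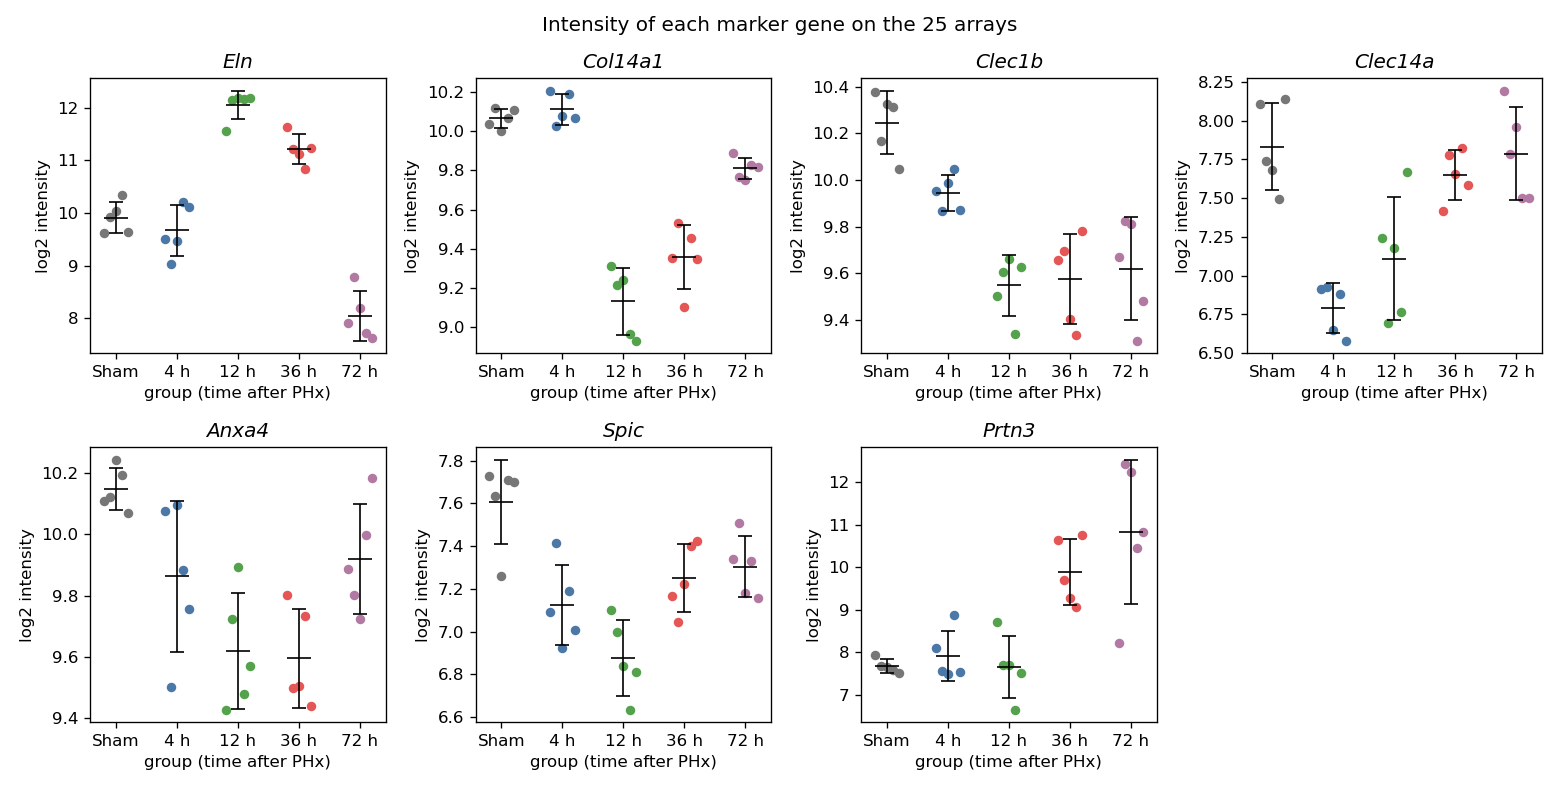
Log2 intensity of each marker gene on every array, with 1 panel per gene and its own vertical scale; points are the 5 livers of each group in replicate order, and black bars give the mean and SD. Eln climbed at 12 h and ended below sham at 72 h, Prtn3 climbed at 36 and 72 h with a wide scatter, and the other 5 genes reached their lowest mean at 4, 12 or 36 h.

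Eln encodes tropoelastin, the soluble precursor of the elastic fibres found in vessel walls and portal tracts. It was upregulated 4.38-fold at 12 h, still 2.45-fold above sham at 36 h, and then 3.64-fold below sham at 72 h. In sham livers its intensity was 789, 977, 1056, 1296 and 793. At 4 h it was 724, 527, 713, 1179 and 1111, within and below the sham range. The 12 h livers gave 3023, 4555, 4628, 4599 and 4625, so that 4 of them lay close together and replicate 1 was lower than the rest, yet above every sham liver. At 36 h the values were 3164, 2388, 2219, 1827 and 2411, and only replicate 1 reached into the 12 h range. At 72 h they were 240.3, 443, 295, 211 and 197, all below the lowest sham liver.

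The differences of Eln from sham were -0.25 at 4 h (SE 0.22, adjusted p = 0.587), 2.13 at 12 h (4.52e-08), 1.29 at 36 h (6.49e-05) and -1.87 at 72 h (4.95e-07). No 12 h or 36 h liver overlapped the sham group, where all 5 arrays lay above all 5 sham arrays for 10.4% and 10.3% of probes, and no 72 h liver did (all below, 8.64% of probes). The group means ran from 277 ± 100.1 (SD, n = 5) at 72 h through 851 ± 281 at 4 h, 982 ± 210.4 in sham and 2402 ± 486 at 36 h to 4286 ± 707 at 12 h. In this order only 4 h and sham did not differ by the test. The step from 4 h to 12 h was 2.38 (7.42e-09). Eln then fell by 0.84 from 12 h to 36 h (0.00453) and by 3.16 from 36 h to 72 h (7.56e-10), which left the 72 h mean 15.97-fold under that at 12 h.

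Col14a1 encodes collagen XIV, which binds to the surface of collagen fibrils and is made by fibroblasts and stellate cells. It did not rise with Eln and was instead downregulated at 12 and 36 h, then part of the way back at 72 h. Sham livers gave 1051, 1110.1, 1024, 1075 and 1105, and the 4 h livers gave 1181, 1042, 1080.2, 1167 and 1071. These groups covered nearly the same narrow range. At 12 h the intensities were 635, 593, 605, 500.0 and 488, and at 36 h they were 654, 741, 549.7, 702 and 652. Every liver of these groups was below every sham and 4 h liver. The 72 h values of 949.8, 871, 861, 908 and 901 fell between those of 36 h and sham, with no overlap on either side.

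Its log2 differences from sham were 0.05 at 4 h (SE 0.08, adjusted p = 0.808), -0.93 at 12 h (9.68e-10), -0.71 at 36 h (7.84e-08) and -0.26 at 72 h (0.0117). In linear terms it was 1.91-fold and 1.63-fold lower than sham at 12 h and 36 h. All 5 arrays lay below all sham arrays at 12, 36 and 72 h, as they did for 9.79%, 8.4% and 8.64% of probes. The order of means was 564 ± 66.0 (SD, n = 5) at 12 h, 659.6 ± 71.6 at 36 h, 898 ± 34.9 at 72 h, 1073 ± 36.3 in sham and 1108 ± 61.7 at 4 h. The fall from 4 h to 12 h was -0.98 (3.92e-10) and the return from 36 h to 72 h was 0.45 (0.000196). The step of 0.23 from 12 h to 36 h (0.0247) was lost under quantile normalization (0.0805) and without replicate 4 or 5 at 12 h or replicate 2 or 4 at 36 h (adjusted p up to 0.0916). The SD of Col14a1 was 3.39% of the mean in sham and 11.7% at 12 h. Of the neighbours in the order of means, sham and 4 h did not differ by the test.

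Clec1b encodes CLEC-2, a C-type lectin receptor for podoplanin that is best known from platelets and is also found on sinusoidal endothelium and Kupffer cells in mouse liver. It was downregulated at 12, 36 and 72 h by similar amounts. Its sham intensities were 1329.6, 1150.4, 1285, 1272 and 1058, and those at 4 h were 992, 935, 1014, 1059 and 936. Here the highest 4 h liver met the lowest sham liver. The values were 727, 780.2, 810.0, 649 and 791 at 12 h, 807, 829.7, 679, 647 and 881 at 36 h, and 816, 908, 899, 636 and 715 at 72 h. Those 3 groups overlapped each other and lay wholly below the sham and 4 h livers.

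The differences of Clec1b from sham were -0.30 at 4 h (SE 0.10, adjusted p = 0.0463), -0.70 at 12 h (4.54e-06), -0.67 at 36 h (9.45e-06) and -0.63 at 72 h (2.47e-05), or 1.62-fold, 1.59-fold and 1.54-fold lower at the last 3 times. The call at 4 h was weak and was lost in 13 of the 25 settings without 1 array, with adjusted p up to 0.115. Those arrays were sham replicates 1 to 4, all 5 of the 4 h group, replicates 1, 3 and 5 at 12 h and replicate 1 at 72 h. From 4 h to 12 h Clec1b fell by 0.40 (0.003). The means were 751 ± 65.0 (SD, n = 5) at 12 h, 769 ± 100.9 at 36 h, 795 ± 118 at 72 h, 987 ± 53.2 at 4 h and 1219 ± 112 in sham, where 72 h and 4 h differed by the test (-0.32, 0.0152). Between 12 and 36 h the difference was 0.03 (95% interval -0.18 to 0.23, adjusted p = 0.89) and between 36 and 72 h it was 0.05 (-0.16 to 0.25, 0.876).

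Clec14a, a second C-type lectin family member, is a surface protein of endothelial cells with a part in vessel sprouting. Unlike Clec1b it was lowest at 4 h and no longer passed against sham at 36 and 72 h. The sham livers gave 276, 213, 205, 180.3 and 282, whereas those at 4 h gave 121, 122, 100.2, 118 and 96. Every 4 h liver was below every sham liver, as for 4.96% of probes. At 12 h the intensities were 151, 104, 145, 109 and 203, so 2 livers remained in the 4 h range and replicate 5 had reached that of sham. The values of 171, 219, 202, 226 and 192 at 36 h and of 292, 220.4, 249, 181 and 181 at 72 h overlapped those of sham.

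Clec14a was 2.06-fold below sham at 4 h (difference -1.04, SE 0.16, adjusted p = 0.000102) and 1.65-fold below it at 12 h (-0.72, 0.00118). At 36 h the difference was -0.18 (95% interval -0.52 to 0.16, adjusted p = 0.502) and at 72 h -0.05 (-0.38 to 0.29, 0.876). The means were 111 ± 12.3 (SD, n = 5) at 4 h, 142 ± 40.03 at 12 h, 202 ± 22.1 at 36 h, 225 ± 47.5 at 72 h and 231 ± 45.3 in sham. Of the neighbours in this order only 12 h and 36 h differed by the test (0.54, 0.0127), and the 36 h and 72 h livers were above those at 4 h by 0.86 (0.000222) and 0.996 (3.81e-05).

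Anxa4 encodes annexin A4, a calcium-dependent phospholipid-binding protein of secretory epithelia that marks bile duct cells in the liver. It was downregulated modestly at 12 and 36 h. The intensities in sham were 1105, 1115, 1212, 1172 and 1075, and at 4 h they were 1079.8, 726, 1095, 944 and 866. Replicates 1 and 3 at 4 h were still within the sham range, while replicate 2 was far lower. At 12 h the probe gave 689, 845, 951, 714 and 761, and at 36 h 892, 723, 727, 852 and 695. These livers were all below sham. The 72 h values of 947, 893, 846, 1023 and 1164 spread from the 36 h range into that of sham.

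The fall of Anxa4 was 1.44-fold at 12 h (difference -0.53, SE 0.11, adjusted p = 0.000468) and 1.47-fold at 36 h (-0.55, 0.000349). At 4 h the difference of -0.28 (0.0957) and at 72 h that of -0.23 (0.129) did not pass. In order the means were 778 ± 88.1 (SD, n = 5) at 36 h, 792 ± 107 at 12 h, 942 ± 154 at 4 h, 974.6 ± 125 at 72 h and 1136 ± 55.2 in sham, and no neighbours in this order differed by the test (adjusted p = 0.915, 0.109, 0.778 and 0.129). The difference of 72 h from 12 h was 0.30 (0.0366), and that of 72 h from 36 h was 0.32 (0.0629). The latter passed without replicate 2 at 4 h, replicate 1 at 36 h or replicate 3 at 72 h (adjusted p down to 0.0338).

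Spic encodes Spi-C, a transcription factor of iron-recycling macrophages, which include the red pulp macrophages of the spleen and Kupffer cells. It was below sham at all 4 times, with its lowest level at 12 h. Sham livers gave 212, 199, 153, 209 and 208, where replicate 3 stood apart from the other 4. The intensities were 136, 170.4, 121, 146 and 129 at 4 h and 137, 128, 114, 99 and 112 at 12 h. All 12 h livers were below all sham livers, and 4 of the 5 livers at 4 h were. At 36 h the values were 144, 132, 149, 169 and 172 and at 72 h 162, 182, 145, 161 and 143, with both groups reaching across the lowest sham liver.

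Spic was 1.40-fold lower than sham at 4 h (difference -0.48, SE 0.11, adjusted p = 0.00319) and 1.66-fold lower at 12 h (-0.73, 7.29e-06). The later differences were smaller, at -0.35 for 36 h (0.0146) and -0.30 for 72 h (0.036). The 72 h call was lost without sham replicate 1, 2, 4 or 5 and without replicate 3, 4 or 5 at 72 h (adjusted p up to 0.0944) and the 36 h call without PHx 36 h replicate 2 (0.0522). From 12 h to 36 h Spic rose by 0.38 (0.00849), and the 72 h level was 0.43 above that at 12 h (0.00274). The means were 118 ± 14.6 (SD, n = 5) at 12 h, 141 ± 19.0 at 4 h, 153 ± 16.9 at 36 h, 159 ± 15.9 at 72 h and 196 ± 24.6 in sham, and of the neighbours in this order only 72 h and sham differed by the test.

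Prtn3 encodes proteinase 3, a serine protease of the azurophil granules of neutrophils, whose transcript is most abundant in the granulocyte precursors of the bone marrow. It was the latest of the members to move and, after PHx, the most variable. In sham livers it gave 245, 205, 203, 191 and 184, and at 4 h 274, 189.7, 181, 474 and 185. At 12 h the values were 418, 208, 207, 101 and 183. Most livers up to 12 h thus lay in or near the sham range, with replicate 4 higher at 4 h and, at 12 h, replicate 1 higher and replicate 4 lower. At 36 h the intensities were 1597, 831, 621, 532 and 1746, all above every earlier liver. At 72 h they were 298, 5512, 4816, 1397 and 1829, so replicate 1 was under the whole 36 h group while replicates 2, 3 and 5 exceeded it.

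Prtn3 was 4.64-fold above sham at 36 h (difference 2.21, SE 0.55, adjusted p = 0.00308) and 8.93-fold above it at 72 h (3.16, 7.64e-05), with no overlap at either time (10.3% and 11% of probes). The differences at 4 h (0.24, 95% interval -0.89 to 1.37, adjusted p = 0.871) and 12 h (-0.02, -1.15 to 1.11, 0.985) did not pass. Its means were 205 ± 23.6 (SD, n = 5) in sham, 223 ± 117 at 12 h, 261 ± 125 at 4 h, 1065 ± 566 at 36 h and 2770.3 ± 2269 at 72 h, and of the neighbours in this order only 4 h and 36 h differed by the test (1.97, 0.00817). The rise from 12 h to 36 h was 2.23 (0.00245), while the 36 h and 72 h levels differed by 0.94 (-0.18 to 2.07, adjusted p = 0.367). The highest 72 h liver was 18.5 times the lowest, and the SD was 81.9% of the mean. On the log2 scale the SD ran from 0.16 in sham to 1.70 at 72 h, while the fit used 1 spread for all groups. The SE and intervals of Prtn3 are therefore too small for comparisons with 72 h and too large for 4 h against sham. Over the 9 settings other than single arrays, the adjusted p of 72 h against sham was up to 0.019. Without PHx 72 h replicate 1 the difference from sham was 3.81 and that from 36 h was 1.60 (adjusted p = 0.016), so this array decided whether 72 h passed against 36 h. The array itself correlated with its group mates at a mean of 0.991 over all probes, beside 0.992 to 0.993 for the other 4.

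**Figure D2:**
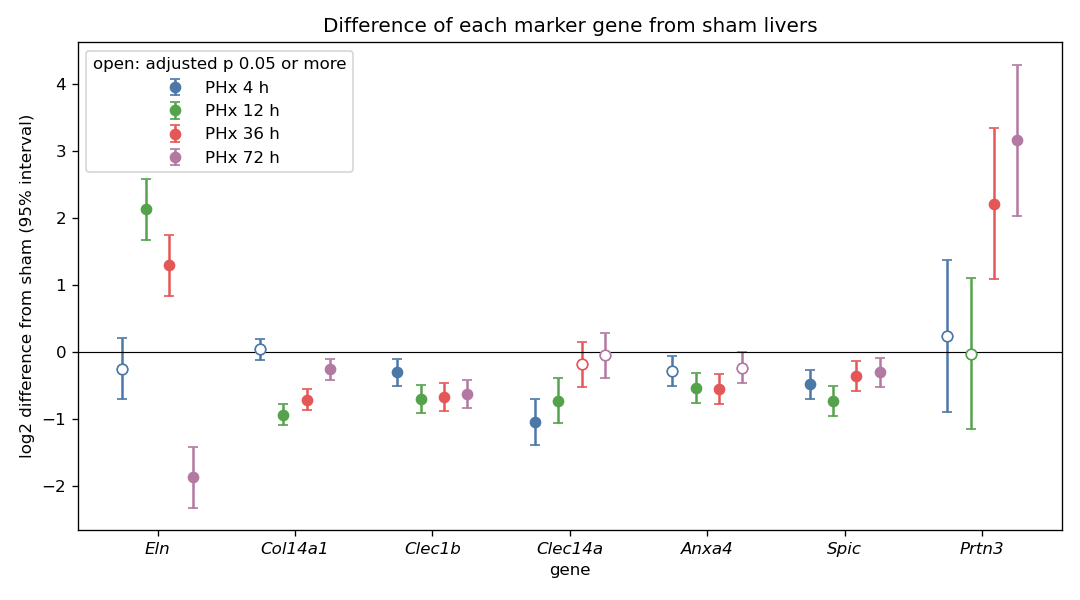
Log2 difference of each marker gene from the 5 sham livers at 4, 12, 36 and 72 h after PHx, with 95% intervals from the limma fit; open circles did not pass at an adjusted p under 0.05. Eln changed sign between 36 h (1.29) and 72 h (-1.87), Prtn3 was above 0 at 36 and 72 h (2.21 and 3.16), and the called differences of the other 5 genes were all negative.

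The timing of the members differed within the same cell type label. Among the genes listed as endothelial, Clec14a had its lowest mean at 4 h and did not pass against sham at 36 and 72 h. Clec1b had its lowest mean at 12 h and remained below sham at 72 h. As Clec1b is also found on platelets and Kupffer cells, these genes need not report the same cells. Among the matrix genes, Eln and Col14a1 moved in opposite directions at 12 h (2.13 and -0.93) and both stood below sham at 72 h. The members did not move in step between livers of one group either. Over the 25 arrays, deviations from the group means correlated at -0.365 to 0.523 over the 21 pairs of members, which share the arrays and are given as a description.

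Other genes of each cell type list were taken where the study's list named a probe for them, so these too had been selected on the same arrays. The cell type lists had been drawn up with earlier results of these data known. Neither the share of a list with a named probe nor its median is therefore read as a result. Of 30 endothelial genes listed, 6 had a named probe, and all 6 were below sham at 12 h, with a median of -0.45 (15.1% of all probes were lower). All but Calcrl stood in the study's clusters 2 and 3. There 424 of 471 and 485 of 610 mRNA probes were lower at 12 h, so nothing is read from this count. The 6 genes parted later. Calcrl, a receptor component for adrenomedullin, was 0.73 above sham at 36 h (adjusted p = 6.28e-06), Tfpi, an inhibitor of coagulation, was at 0.05 (0.802), and Esm1 and Sparcl1, secreted products of endothelium, were at -0.49 (0.000229) and -0.44 (0.00187). The 12 h mean log2 intensity of Sparcl1 (6.08) lay among the dimmest 30% of probes, so the size of its fall at 12 h is a lower bound. The summed intensity of the 4 genes other than the members ran from 569.6 to 675 in sham, 429.8 to 515.5 at 12 h and 635 to 792 at 36 h. The 12 h sums were lower and did not overlap sham, but nothing is read from this for genes so selected. Pecam1, Cdh5, Stab2 and Lyve1, defining markers of endothelium, were not analysed here, so the endothelial label of Clec1b and Clec14a could be checked only against these 4 genes.

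Of 25 Kupffer cell and macrophage genes, 4 had a named probe including Spic, and 3 of these were below sham at each of 12, 36 and 72 h, where 15.1%, 12.5% and 13.1% of all probes were lower. The 3 genes were not the same, as Atp6v0d2 was among them at 12 h and Lilrb3 at 36 and 72 h. All listed genes with a named probe but Atp6v0d2 stood in the study's clusters 2 and 3. Their direction was largely fixed by the selection, so nothing is read from these counts. Nlrp3, an inflammasome sensor, was like Spic below sham at all 4 times, with differences of -0.43 at 4 h (adjusted p = 0.022), -0.72 at 12 h (6.29e-05), -0.69 at 36 h (0.000123) and -0.49 at 72 h (0.00364). Lilrb3, now named Pirb, an inhibitory receptor of myeloid and B cells, did not pass at 12 h (-0.22, 0.242) and was at -1.28 at 36 h (5.3e-08). Atp6v0d2, a proton pump subunit of macrophages and osteoclasts, went the other way in time, from -1.54 at 12 h (1.03e-08) to 1.56 at 72 h (1.26e-08). Its 12 h mean log2 intensity of 5.83 lay among the dimmest 30% of probes, so the size of its fall at 12 h is a lower bound. The sum of these 3 genes was 734 to 967 in sham, 597 to 681 at 4 h and 522 to 621 at 12 h. It was 447 to 629.9 at 36 h and 791 to 941 at 72 h. The sum thus lay below sham up to 36 h and overlapped it at 72 h. At 72 h, however, only Atp6v0d2 was above sham, while Lilrb3 (-0.91, adjusted p = 9.35e-06) and Nlrp3 were still below it. Nothing is read from this sum for genes so selected. Clec4f, Cd5l, Vsig4 and Timd4 were not analysed here.

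Of 18 stellate cell and fibroblast genes, 4 had a named probe, and all 4 were below sham at 12 h with a median of -0.82 (15.1% of all probes were lower). All 4 stood in the study's clusters 2 and 3, in which 424 of 471 and 485 of 610 mRNA probes were lower at 12 h, so nothing is read from this count. Colec11, a soluble collectin, fell most among them, to -1.94 at 12 h (adjusted p = 1.04e-09), with intensities of 135.8 to 252.5 at 12 h against 587 to 801 in sham. It came back like Col14a1, to -1.20 at 36 h (2.03e-06) and -0.60 at 72 h (0.0052). Bmp5, a growth factor of the TGF-beta family, was at -0.71 at 12 h (0.00035) and -0.16 at 36 h (0.48), and Abcc9, a potassium channel subunit of pericytes, at -0.32 (0.0225) and -0.22 (0.158). The 3 genes summed to 1072 to 1239 in sham, 429 to 642 at 12 h and 789 to 908 at 72 h, with no overlap between 12 h and sham. Colec11 carried most of the sham sum, and nothing is read from the sum for genes so selected. Col1a1, Dcn, Lrat and Pdgfrb were not analysed here.

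The matrix list, with 8 of its 20 genes named, did not share 1 direction. At 12 h, 2 were higher (Eln and P4ha1) and 3 lower, beside 16.3% and 15.1% of all probes. At 36 h, 4 were higher and 3 lower (13.6% and 12.5% of all probes). The 8 genes stood in the study's clusters 1 to 4 of changing transcripts, so nothing is read from these counts. P4ha1, a subunit of the prolyl hydroxylase that collagen folding needs, was at 0.41 at 12 h (adjusted p = 0.00506) and 0.73 at 36 h (1.37e-05). Mmp19, a matrix metalloproteinase, was at -0.02 at 12 h (0.936) and 1.02 at 36 h (1.55e-06). Olfml1, a secreted olfactomedin-domain protein, reached 2.25 at 72 h (1.84e-06), at the time when Eln stood at -1.87. Abi3bp, a matrix protein of connective tissue, was below sham at every time, from -0.38 at 4 h (0.0319) to -0.93 at 72 h (1.28e-06). The 6 genes other than the members summed to 2206 to 2761 in sham and to 5321 to 6284 at 72 h, with no overlap. Olfml1 and Mmp19 carried most of that sum, whereas the median difference of the 6 genes at 72 h was 0.11. Of these 6, 3 were called higher and 2 lower at 72 h (15.1% and 13.1% of all probes).

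**Figure D3:**
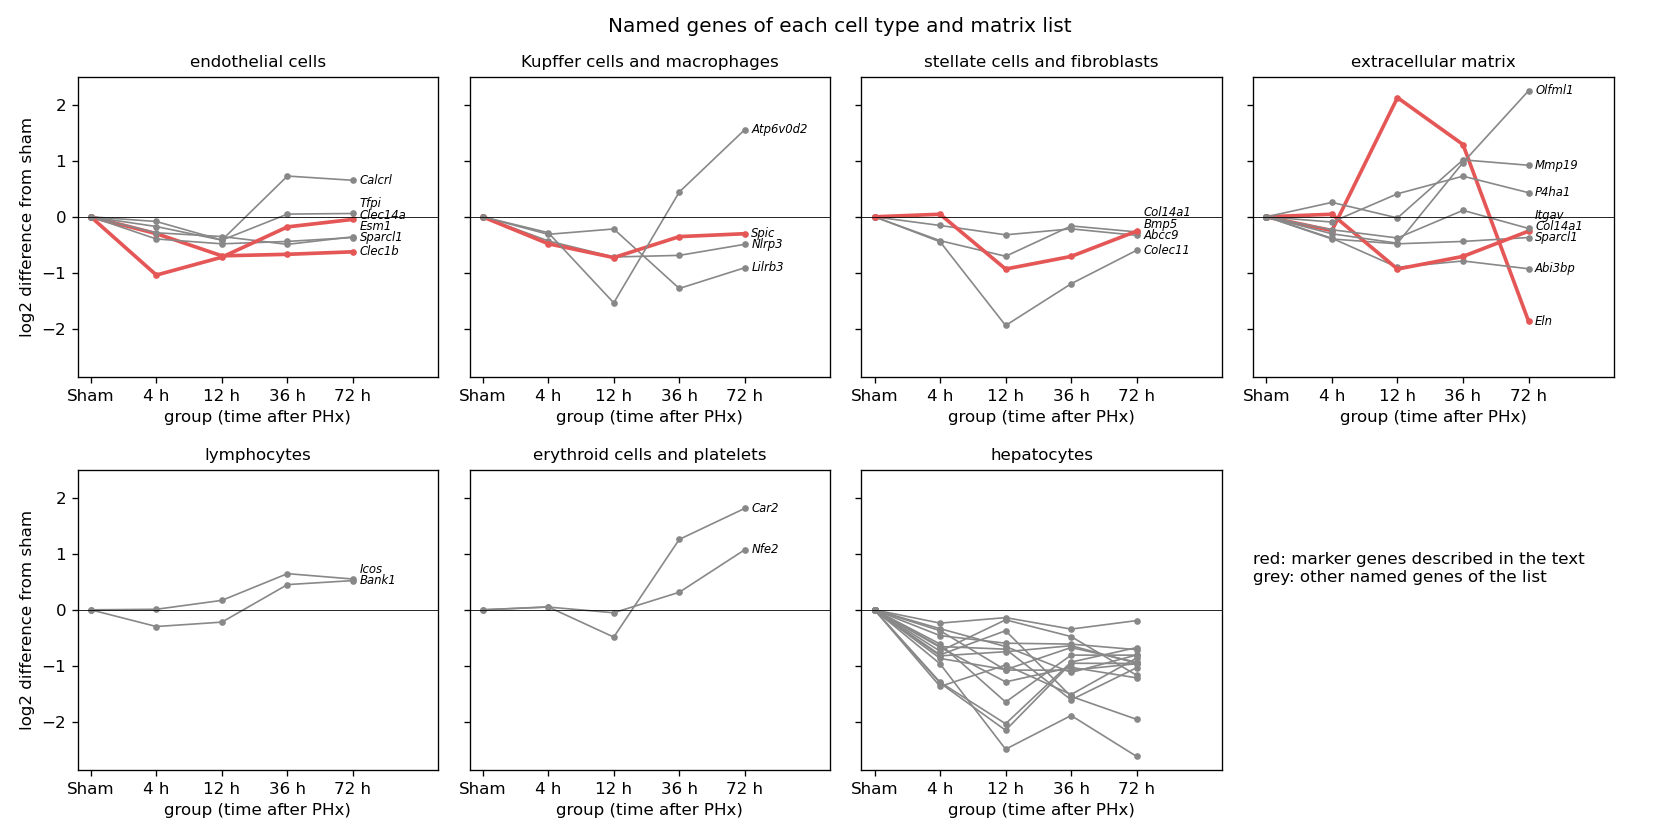
Log2 difference from sham of every named gene of 7 cell type and matrix lists at each time after PHx, with members in red and other genes in grey; Col14a1 and Sparcl1 stand in 2 lists. All named endothelial and stellate cell genes were under 0 at 12 h, the matrix genes spread from -1.87 (Eln) to 2.25 (Olfml1) at 72 h, and the 15 hepatocyte genes were all under 0 at each time. Every gene shown came from the study's list, which had been selected on these same arrays.

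For Anxa4 and Prtn3 no other gene of their lists had a named probe (10 cholangiocyte genes and 13 neutrophil and granule genes listed), so Krt19, Epcam, Elane and Mpo were not analysed here and the cell type behind both probes could not be checked. Genes of other blood cells were examined beside Prtn3. Nfe2, a transcription factor of erythroid cells and megakaryocytes, and Car2, the carbonic anhydrase of red cells, were above sham at 72 h by 1.07 (adjusted p = 1.48e-05) and 1.81 (4.58e-09). At 36 h Car2 passed (1.26, 9.83e-07) and Nfe2 did not (0.31, 0.182), and at 12 h Car2 was below sham (-0.49, 0.0197). At 72 h, Nfe2 gave 127, 237, 213, 123 and 107, so replicates 2 and 3 were highest, as for Prtn3, but replicate 5 was lowest. Car2 gave 1102, 1450.3, 1602, 1872 and 1789.5, so replicate 1 was lowest, as for Prtn3, but replicates 4 and 5 were highest. Neither gene followed the order of Prtn3 over the 5 livers. The sum of both genes ran from 445 to 631 in sham and from 1229.6 to 1995 at 72 h. Icos and Bank1, genes of T and B cells, were both above sham at 36 h (0.65 and 0.45) and at 72 h (0.55 and 0.52). Only 2 of 8 erythroid and platelet genes and 2 of 11 lymphocyte genes listed had a named probe. Icos stood in the study's cluster 1 and the other 3 genes in cluster 4. There 401 of 401 and 258 of 285 mRNA probes were higher at 36 h, so their direction was largely fixed by the selection. Whether blood cells of these types had a part in the rise of Prtn3 was not tested.

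Of 18 hepatocyte genes 15 had a named probe, and of these 13, 12, 15 and 15 were below sham at 4, 12, 36 and 72 h and 0 above it, where 6.35%, 15.1%, 12.5% and 13.1% of all probes were lower. All 15 came from the study's clusters 2 and 3 of falling transcripts, so their direction was largely fixed by the selection. Their median differences were -0.74, -0.99, -0.96 and -0.95. What part this had in the falls of Col14a1, Clec1b, Anxa4 and Spic was not tested.

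The transcripts most like each member were sought by Pearson correlation of log2 intensity over the 25 arrays, among 1163 other named mRNA genes of the study's list. The arrays fall into 5 groups, so these values mostly follow the group means and are given as descriptions. Eln was most like Cry1, a repressor of the circadian clock (0.898), and Pap, now Reg3b, a secreted C-type lectin (0.883). Cry1 was 494 to 710.0 in sham, 1015 to 1659 at 12 h, 1439 to 1732 at 36 h and 221 to 363 at 72 h, so like Eln it rose and then ended under the sham range. Reg3b did not end wholly under its sham range, with 63 to 160.5 in sham, 3118 to 6658 at 12 h and 46.8 to 75.9 at 72 h. Its sham and 72 h values reached under 68.3, where the dimmest 30% of probes ended, so little room was left for a fall. Within groups neither Cry1 nor Reg3b followed Eln closely, with correlations of the deviations of 0.152 and 0.236. Whether time of day had a part in these likenesses was not tested.

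Col14a1 was most like Pcca, a mitochondrial carboxylase subunit (0.925), and Colec11 (0.917). Colec11 also kept a correlation of 0.575 in deviations from the group means, where Abcc9 came first for Col14a1 (0.625). Clec1b was most like Bnip3, a mitophagy receptor (0.849), and Fxyd1, a regulator of the sodium pump (0.838). Clec14a was most like Brd3, a reader of acetylated histones (0.836), and in deviations like Ddx17, an RNA helicase (0.821). Spic came closest to Foxk1 (0.862), a forkhead factor, and Anxa4 to Zfp35 (0.801), a zinc finger gene.

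Prtn3 was most like the gene listed as 2210013O21Rik, now Nbdy, which encodes a microprotein of mRNA decapping (0.895), and Mas1, a receptor for angiotensin 1-7 (0.878). Nbdy gave 662, 1163, 903, 754 and 1036 in the 72 h livers against 404 to 515 in sham, so its rise was smaller than that of Prtn3 while its lowest and highest 72 h livers, replicates 1 and 2, were the same. The closest in deviations was A630077B13Rik, now Calhm6 (0.653).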

How the data were processed

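RNA from 25 mouse livers was hybridised to 1 array per liver. The deposited table gives a linear intensity for each probe, with arrays brought to a common scale by the authors and without subtraction of background to 0. The scaling step is not stated in the sources used here. Since the vsn transformation of the study's methods does not yield such linear values, log2 of the deposited intensity was taken and the planned test was otherwise kept. The methods' maSigPro was not used here. Of 35981 probes 2 blank ones were left out. One mean per group was fitted in limma 3.58.1 (R 4.3.3) with eBayes, and p-values were adjusted by Benjamini-Hochberg over 35979 probes per contrast. Genes were named by the study's list of changing transcripts, which was at hand only in part. The rule for named genes took the 7 members, their most alike genes and every named gene of 9 cell type and matrix lists. Members and lists were chosen with earlier results of these data known. Age, surgery and times are per the labels. In data simulated for 36 h against sham, with 35979 probes, 4, 37, 47 and 50 of 50 probes changed 1.2-, 1.5-, 2- and 4-fold were found, with 6 false calls. Only these probes were changed there, whereas 9357 probes passed at 36 h in the data. The adjusted threshold was thus stricter in the simulation, and its recovery is not that of the real test. Alternatives were quantile normalization, median centring, a filter on the dimmest 30% of probes, normexp background correction, a trended robust variance, the methods' t-test, fits of 2 groups, a replicate block and leaving out each array. There are no detection calls or sequencing depth, and precision is limited by the 5 arrays per group.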

Additional observations from a re-analysis of the deposited data

Results flagged for a closer look

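In the 12 h group, Eln was lowest in replicate 1, at an intensity of 3022.55, while the nearest of the other 4 livers was at 4555 (gap over range 0.963, above the critical value of 0.71 for 5 samples). Without that liver the difference of Eln at 12 h from sham was 2.25 in place of 2.13. In sham, Spic was lowest in replicate 3, at 153.15, with the nearest liver at 199 (gap over range 0.80). Without that liver the differences of Spic from sham were -0.57, -0.82, -0.44 and -0.39 at 4, 12, 36 and 72 h. Of 35 groups of 5 livers examined, 2 stood out in this way, and chance alone gives about 1 in 20.

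Eln was the member whose difference from sham passed in opposite directions at different times. The difference between times was itself past the threshold, at -4.00 for 72 h against 12 h (adjusted p = 1.4e-12) and -3.16 for 72 h against 36 h (7.56e-10).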

How the results depend on the processing

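Of 1666 comparisons of a member's difference with its value under another setting, 1602 kept direction and side of the threshold, 35 lost the call, 9 gained it and 20 changed sign, all of the last among differences that did not pass. The sign changes were Clec1b at 36 h against 12 h under quantile normalization (-0.0263), Prtn3 at 12 h under median centring (0.0031), and 6 differences without single arrays. These ranged from -0.0013 to 0.35 (Prtn3, 4 h), -0.28 to 0.23 (Prtn3, 12 h), -0.15 to 0.0314 (Clec14a, 72 h), -0.0245 to 0.087 (Clec1b, 36 h against 12 h), -0.075 to 0.0447 (Anxa4, 36 h against 12 h) and -0.0147 to 0.12 (Clec1b, 72 h against 36 h). The cause was not tested. Clec1b at 4 h was also lost under median centring (adjusted p = 0.0552), a trended robust variance (0.0632) and normexp with offset 16 (0.0629, a setting chosen after seeing the data), and Spic at 36 and 72 h under the methods' t-test (0.0617 and 0.0865). From 12 h to 36 h, Col14a1 (0.174) and Clec14a (0.0799) were lost under that t-test, and Col14a1 in a fit of 2 groups (0.129). Calls were gained by Anxa4 from 4 h to 12 h without replicate 2 at 4 h (0.0181) or replicate 3 at 12 h (0.0399), by Spic over that step without replicate 1 at 12 h (0.0429), and by Anxa4 from 36 h to 72 h under quantile normalization (0.0449) and the filter on dim probes (0.0491). Without single arrays 2 to 3, 5, 3 to 4 and 3 to 4 members were lower and 0, 1, 2 and 1 higher at the 4 times, and 3488 to 4857, 10169 to 11466, 8289 to 9682 and 8973 to 10460 probes passed. Livers of the same replicate number shared only a number, with a median correlation of deviations of 0.021 over 50 pairs against 0.012 over 200 other pairs. With the replicate block 2, 5, 4 and 4 members were lower and 4343, 11077, 9226 and 9990 probes passed, in place of 4485, 11299, 9357 and 10145; it ended the call of Clec1b at 4 h. Dim probes limit the folds, since no background was subtracted: under normexp with offset 16, Clec14a at 4 h was -1.29 and Spic at 12 h -0.91.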
